A study of Mus musculus with 8 samples.

Results

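Microglia are the resident macrophages of the brain parenchyma, and border macrophages are the related cells that line its vessels, meninges and choroid plexus. The 30 genes described here mark these cells and were taken from the count table by gene name, each with 1 row out of 46078. They comprise 26 genes of microglia, several of which border macrophages also express, and the 4 border macrophage genes Mrc1, Cd163, Lyz2 and Pf4. The libraries were made from poly(A) RNA of the hippocampus of C57BL/6J mice at 9 weeks of age. There were 4 libraries of wild type (WT) mice and 4 of mice hemizygous for Tg(Camk2a-cre)T29-1Stl, called T29-1 Cre, whose Cre recombinase is under a Camk2a promoter active in forebrain excitatory neurons. No floxed allele or treatment is named for either group, and the sex of the animals and whether each library came from a separate animal are not given. Microglia are not a cell type in which this promoter is known to act, so the comparison asks whether the transgene is accompanied by a change in the immune cells around the neurons that carry it.

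Microglia depend on Csf1r, a receptor kinase whose ligands are Csf1 and the neuronal Il34, and their identity rests on transcription factors such as PU.1, the product of Spi1. They sense nucleotides through P2Y receptors, receive the neuronal chemokine Cx3cl1 through Cx3cr1, make most of the C1q of the brain, and signal through adaptors with an immunoreceptor tyrosine-based activation motif (ITAM). Markers such as Tmem119 and P2ry12 are known to fall, and genes such as Itgax and Cst7 to rise, when microglia respond to injury. In bulk tissue, fewer cells of a type and less RNA per cell cannot be told apart.

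PU.1 binds purine-rich sites with the core GAGGAA, and RefSeq promoters on GRCm38.p6 are shown to give the letters upstream of genes from each side of the contrast. Each stretch has 100 bases, runs 5′ to 3′ on the strand of its gene and ends before the annotated starts in RefSeq and GENCODE. Capitals mark GAGGAA or its reverse complement TTCCTC. C1qb (chr4:136886201-136886300, minus strand) and Trem2 (chr17:48346301-48346400, plus strand) stand for complement and ITAM signalling, P2ry13 (chr3:59210883-59210982, minus strand) and P2ry12 (chr3:59262986-59263085, minus strand) are neighbouring receptors, and Mrc1 (chr2:14229292-14229391, plus strand) is the border macrophage gene with the largest spread beyond counting error of the 3 tested.
C1qb: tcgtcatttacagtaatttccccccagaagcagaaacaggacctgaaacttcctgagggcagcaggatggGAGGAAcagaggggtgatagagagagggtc
Trem2: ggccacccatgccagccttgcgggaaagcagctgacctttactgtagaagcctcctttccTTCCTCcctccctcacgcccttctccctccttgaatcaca
P2ry13: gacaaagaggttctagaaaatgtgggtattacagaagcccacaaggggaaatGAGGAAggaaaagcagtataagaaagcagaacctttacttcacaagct
P2ry12: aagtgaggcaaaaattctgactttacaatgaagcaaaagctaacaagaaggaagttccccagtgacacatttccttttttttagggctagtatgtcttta
Mrc1: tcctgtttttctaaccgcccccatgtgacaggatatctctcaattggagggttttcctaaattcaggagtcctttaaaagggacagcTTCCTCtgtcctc

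The matches begin 30 bases before the RefSeq start in C1qb, 40 in Trem2, 48 in P2ry13 and 35 in Mrc1. The stretch of P2ry12 has neither GAGGAA nor TTCCTC, and other purine-rich sites were not searched for. Promoters of 300 bases were matched for 19 of the 26 microglial genes and for all 4 border macrophage genes. On either strand GAGGAA was found in 14 of the 19 (73.7%) and in 2 of the 4, beside 31.3% of the 27025 genes of the promoter table. A match describes the letters and says nothing about binding.

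None of the 29 genes that could be tested passed the test between the genotypes, and Pf4 was removed by the filter on low counts. By edgeR's quasi-likelihood test with Benjamini-Hochberg adjustment at 0.05, the calls were 0 of the 29 and 1 of all 15996 tested genes (0.00625%), and the smallest adjusted p of a member was 0.998. The unadjusted p was under 0.05 for 0 of the 29, beside 2.43% of all tested genes. DESeq2 and limma-voom gave the same 2 counts of 0 for the members. Leaving out a single library put 1 of the 29 members at an unadjusted p under 0.05 in 4 of 8 fits, and called 0. These were Cd53 without WT replicate 2 and Olfml3 without WT replicate 3. The others were Mrc1 without T29-1 Cre replicate 1 and Spi1 without T29-1 Cre replicate 3. In these 4 fits, in this order, 445 of 16172, 678 of 16142, 365 of 16135 and 350 of 16114 tested genes were under 0.05. For 0 of the 29 did the libraries of the genotypes fail to overlap, beside 1.81% of all tested genes. Of the 26 microglial genes 20 had a lower mean in T29-1 Cre (76.9%), beside 50.3% of all tested genes, and 6 a higher one, beside 49.7%. Their median log2 fold change was -0.06. The median over all tested genes was 0.00. Lower means were also found for 7 of 7 oligodendrocyte markers (median log2 fold change -0.08), 5 of 5 tested red blood cell markers (-0.30), 5 of 8 markers of hippocampal neurons (-0.02) and 4 of 7 of astrocytes (-0.02), and 0 of these markers were called. Other lists leaned the other way or not at all. Higher means were found for 9 of 12 endothelial and mural markers (median log2 fold change 0.06) and 6 of 8 meningeal fibroblast markers (0.07). Of 6 tested markers of choroid plexus and ependyma 3 were higher (0.02), and 0 of the markers in these lists were called. The microglial genes share their libraries and largely their cells, so their signs are not independent. The number of the 26 above their mean over the libraries was 17, 11, 14 and 18 in WT replicates 1 to 4 and 13, 4, 21 and 8 in T29-1 Cre replicates 1 to 4, so that both extremes were T29-1 Cre. Without WT replicate 4 or without T29-1 Cre replicate 2, 17 of the 26 had a lower mean in T29-1 Cre, and without T29-1 Cre replicate 3, 21 did.

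**Figure D1:**
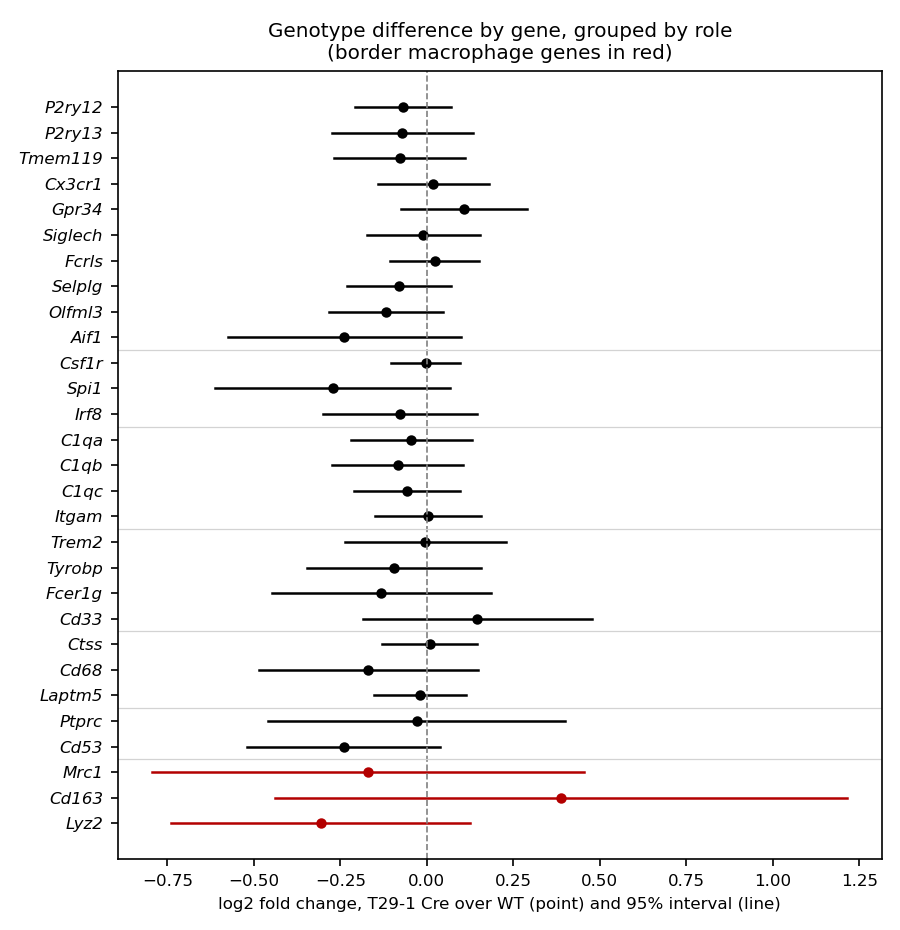
Log2 fold change of T29-1 Cre over WT for the 29 tested genes (points) with 95% intervals (lines), grouped by role from receptors of resting microglia at the top to border macrophage genes in red. Every interval crosses 0, and those of Mrc1, Cd163 and Lyz2 are wider than those of most microglial genes.

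For most microglial genes the interval was narrower than 1.5-fold. For 25 of the 26 (96.2%) the 95% interval lay within 1.5-fold in either direction, and for 18 (69.2%) within 1.25-fold. Of the 9677 tested genes in the same range of level, 2.89 to 85.7 CPM (counts scaled to equal library totals), 98.4% and 78.9% did. The exception at 1.5-fold was Spi1. Over the 26 genes the libraries summed to 491, 474, 475 and 499 CPM in WT replicates 1 to 4 and to 481, 453, 492 and 468 CPM in T29-1 Cre replicates 1 to 4. The highest sum was 1.10 times the lowest, and the genotypes overlapped. The means were 485 ± 12.5 CPM for WT and 474 ± 16.7 CPM for T29-1 Cre (SD, n = 4 each), or 0.0479% of counts over the 8 libraries.

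Levels between genes are compared per kilobase of exon, counted over all annotated transcripts, so the order depends on these lengths. C1qa led the members with 28.9 ± 3.19 CPM per kb in WT (SD, n = 4), followed by C1qb at 27.9 ± 4.06 and the cysteine protease gene Ctss at 26.2 ± 2.10. These neighbours in the order lay within their spread. Csf1r at 14.9 ± 0.613 CPM per kb and C1qc at 13.9 ± 1.10 came next, then P2ry12 at 10.7 ± 0.846. At the other end, Cd163 had 0.0889 ± 0.0490 CPM per kb in WT, Ptprc 0.168 ± 0.0241, Pf4 0.318 ± 0.153 and Mrc1 0.348 ± 0.0439 (SD, n = 4 each). The 18313 bases of exon annotated for Ptprc, from many transcripts, lower its value per kilobase. Among the border macrophage genes Lyz2, a lysozyme that microglia can also make, had the highest level at 2.29 ± 0.446 CPM per kb.

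**Figure D2:**
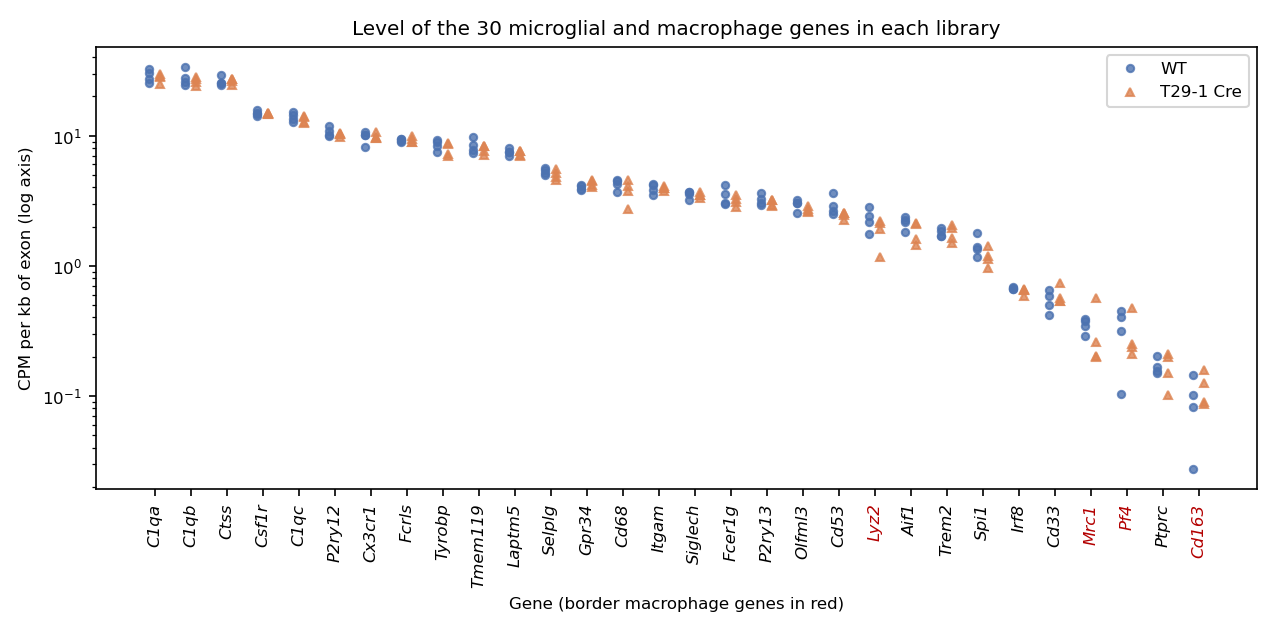
CPM per kilobase of exon (log axis) in every library for the 30 genes, ordered by mean level, with WT as circles and T29-1 Cre as triangles. WT and T29-1 Cre points overlap for each gene, and the border macrophage genes in red lie in the lower part of the order.

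Csf1r (chr18:61100598-61132149, plus strand in GRCm38) had 90.7, 82.4, 84.6 and 85.5 CPM in WT replicates 1 to 4 and 85.3, 86.1, 86.7 and 84.4 CPM in T29-1 Cre. All T29-1 Cre libraries lay inside the WT range. The fold change was 0.998 with a 95% interval of 0.931 to 1.07, the narrowest of the members. Of its exon bases 15.1% overlap Hmgxb3 on the opposite strand, so reads there are uncertain where counting ignored strand. Irf8, a transcription factor that microglia need, had 4.68, 4.76, 4.83 and 4.64 CPM in WT and 4.57, 4.64, 4.12 and 4.61 CPM in T29-1 Cre, with a log2 fold change of -0.08 (SE 0.103, exact permutation p = 0.0571). T29-1 Cre replicate 3 lay below the other libraries, and without it the value was -0.04. Spi1 (chr2:91082390-91115756) had 3.63, 3.15, 3.75 and 4.81 CPM in WT and 3.17, 2.58, 3.83 and 3.04 CPM in T29-1 Cre. WT replicate 4 was the highest and T29-1 Cre replicate 2 the lowest, and the genotypes overlapped. The log2 fold change was -0.27 (SE 0.158, exact two-sided permutation p = 0.229), and it was -0.15 without WT replicate 4.

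The nucleotide receptors P2ry12 and P2ry13 lie 5.4 kb apart on chromosome 3, inside Med12l on the opposite strand. P2ry12, which guides microglial processes to ATP and ADP, had 27.6, 25.6, 30.03 and 25.4 CPM in WT and 26.0, 24.8, 26.7 and 26.2 CPM in T29-1 Cre, a fold change of 0.953 (95% interval 0.866 to 1.05). P2ry13, a receptor of ADP, had 8.11 ± 0.746 CPM in WT against 7.73 ± 0.457 in T29-1 Cre (SD, n = 4 each). Per kilobase P2ry12 was 3.34 ± 0.240 times P2ry13 in WT and 3.34 ± 0.169 times in T29-1 Cre (SD, n = 4 each). These ratios differed by less than their spread.

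Cx3cr1, the fractalkine receptor, had 48.0, 45.3, 45.8 and 37.0 CPM in WT and 43.3, 44.0, 48.4 and 42.9 CPM in T29-1 Cre. WT replicate 4 was the lowest of all, and the fold change was 1.01 (95% interval 0.906 to 1.13). Gpr34, a receptor of lysophosphatidylserine, had 8.12, 8.75, 8.62 and 7.98 CPM in WT and 9.41, 8.39, 9.60 and 8.66 CPM in T29-1 Cre. T29-1 Cre replicates 1 and 3 lay above every WT library and replicates 2 and 4 within the WT range, with a log2 fold change of 0.11 (SE 0.0850, exact permutation p = 0.143).

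Tmem119, a membrane protein used to tell microglia from other macrophages, lies 18.0 kb from Selplg, the P-selectin ligand, on chromosome 5. Tmem119 had 16.9, 18.1, 19.5 and 22.5 CPM in WT and 17.8, 16.6, 19.1 and 19.3 CPM in T29-1 Cre, and without WT replicate 4 its log2 fold change moved from -0.08 to 0.00. Selplg was at 22.7 ± 1.19 CPM in WT against 21.4 ± 1.70 in T29-1 Cre, Siglech, a sialic acid-binding lectin, at 11.9 ± 0.731 and 11.8 ± 0.500, and the Fc receptor-like gene Fcrls at 21.5 ± 0.558 and 21.8 ± 1.08 (SD, n = 4 each). The secreted olfactomedin Olfml3 had 18.6, 18.7, 15.7 and 19.6 CPM in WT and 16.8, 16.2, 17.8 and 16.0 CPM in T29-1 Cre. WT replicate 3 was the lowest library and the other WT libraries the highest, with a log2 fold change of -0.12 (SE 0.0771, exact permutation p = 0.200). Aif1, which encodes the stain target Iba1, had 2.81, 3.31, 3.43 and 3.64 CPM in WT and 3.21, 2.19, 2.46 and 3.26 CPM in T29-1 Cre. T29-1 Cre replicates 2 and 3 lay below every WT library, and the log2 fold change was -0.24 (SE 0.157, exact permutation p = 0.171).

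The 3 C1q genes, whose chains assemble into the recognition molecule of the classical complement pathway, lie in a row on chromosome 4 with gaps of 3.6 kb and 2.9 kb. C1qa had 28.6, 31.4, 26.3 and 33.9 CPM in WT and 31.1, 25.8, 29.97 and 29.2 CPM in T29-1 Cre. C1qb had 30.2, 26.6, 28.1 and 36.6 CPM in WT and 30.5, 26.4, 29.4 and 28.1 CPM in T29-1 Cre. C1qc had 28.1, 25.8, 24.4 and 29.1 CPM in WT and 27.5, 24.0, 27.1 and 24.4 CPM in T29-1 Cre. WT replicate 4 was the highest of the 8 libraries for all 3 genes, and T29-1 Cre replicate 2 was the lowest for each of them. Per kilobase C1qb was 0.968 ± 0.107 times C1qa in WT and 0.943 ± 0.0254 times in T29-1 Cre, and C1qc 0.484 ± 0.0385 and 0.478 ± 0.0211 times (SD, n = 4 each). The exon bases annotated were 1040 for C1qa, 1088 for C1qb and 1931 for C1qc. In CPM C1qc was close to C1qa, with means over the 8 libraries of 26.3 and 29.5. The log2 fold changes were -0.05 (SE 0.0814), -0.08 (SE 0.0883) and -0.06 (SE 0.0715) for C1qa, C1qb and C1qc. Itgam, the alpha chain of complement receptor 3, was at 19.7 ± 1.70 CPM in WT against 19.8 ± 0.712 in T29-1 Cre (SD, n = 4 each). GENCODE places the model Gm49368 over 68.7% of its exon bases on the same strand, and the count table has 0 rows of that name.

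Trem2, a receptor for lipids, had 8.38, 9.20, 8.36 and 9.61 CPM in WT and 9.67, 8.13, 10.1 and 7.42 CPM in T29-1 Cre, so that both the highest and the lowest library were T29-1 Cre. Its adaptor Tyrobp was at 5.65 ± 0.522 CPM in WT against 5.28 ± 0.647 in T29-1 Cre, and per kilobase it was 4.73 ± 0.534 and 4.45 ± 0.267 times Trem2 (SD, n = 4 each). These ratios rest on the exon bases of all annotated transcripts, 667 for Tyrobp and 4946 for Trem2. In CPM the order was the reverse, with means over the 8 libraries of 8.86 for Trem2 and 5.46 for Tyrobp. Fcer1g, a second ITAM adaptor, was at 3.02 ± 0.495 CPM and 2.76 ± 0.243 CPM. Cd33, a sialic acid-binding receptor, had 4.56, 5.08, 3.85 and 3.26 CPM in WT and 4.19, 4.17, 5.70 and 4.42 CPM in T29-1 Cre. Replicate 3 of T29-1 Cre was the highest and WT replicate 4 the lowest, with a log2 fold change of 0.15 (SE 0.154). It was 0.03 without the first of these libraries, 0.05 without the second and 0.25 without WT replicate 2.

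Among the lysosomal genes, Ctss had 33.2, 34.6, 34.7 and 39.7 CPM in WT and 36.9, 33.2, 35.9 and 36.9 CPM in T29-1 Cre, with a fold change of 1.01 (95% interval 0.914 to 1.11). Laptm5, a lysosomal membrane protein of blood-derived lineages, was at 28.3 ± 1.72 CPM in WT against 27.9 ± 1.32 in T29-1 Cre (SD, n = 4 each). Cd68, a glycoprotein of phagocyte lysosomes, had 5.31, 4.60, 5.65 and 5.77 CPM in WT and 5.70, 4.69, 5.16 and 3.41 CPM in T29-1 Cre. Replicate 4 of T29-1 Cre was the lowest, and without it the log2 fold change went from -0.17 to -0.04.

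Cd53, a tetraspanin of leukocytes, had the smallest unadjusted edgeR p of the members, 0.0861. It was at 4.56, 4.36, 5.03 and 6.27 CPM in WT and 4.31, 4.43, 3.90 and 4.46 CPM in T29-1 Cre. WT replicate 4 lay above all other libraries, and WT replicate 2 fell within the T29-1 Cre range. The log2 fold change was -0.24 (SE 0.130, edgeR adjusted p = 0.998, exact permutation p = 0.0857), and it was -0.13 without WT replicate 4. Ptprc, the leukocyte phosphatase CD45, had 3.03, 2.74, 3.72 and 2.84 CPM in WT and 3.63, 1.85, 2.74 and 3.86 CPM in T29-1 Cre. The T29-1 Cre libraries ran from below to above all WT libraries, on 43 to 114 counts per library.

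**Figure D3:**
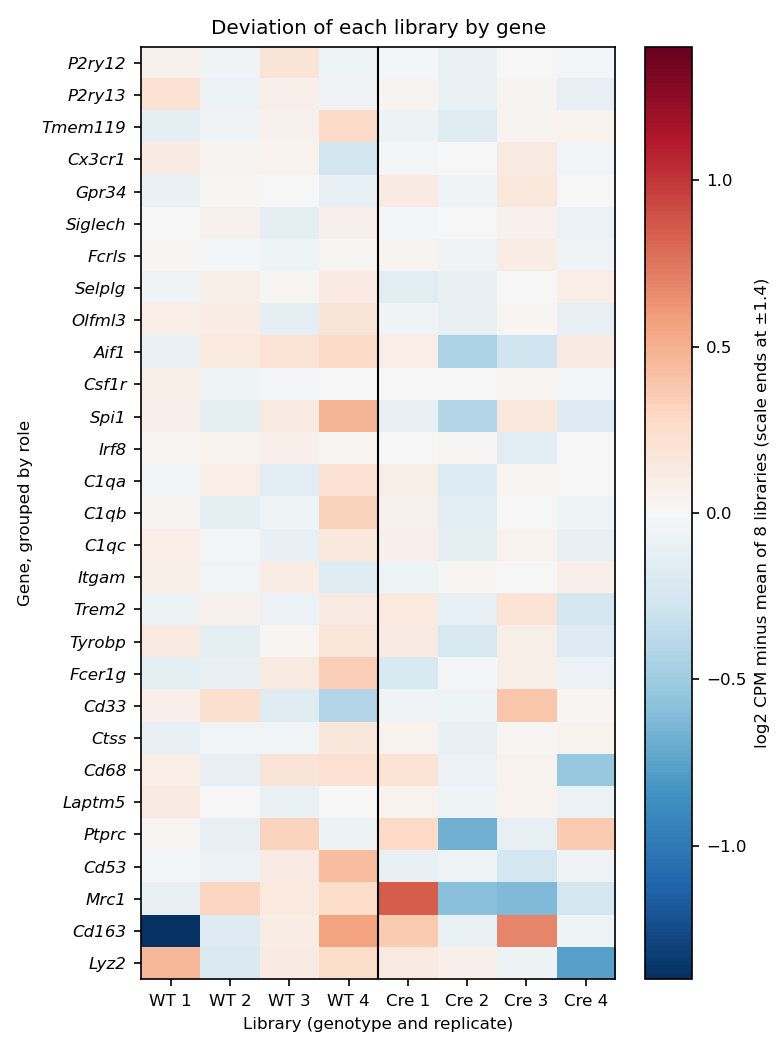
Log2 CPM of each library minus the mean of the 8 libraries for the 29 tested genes (rows, grouped by role) in WT replicates 1 to 4 and T29-1 Cre replicates 1 to 4 (columns). WT replicate 4 is raised for C1qb, Spi1, Fcer1g and Cd53 and lowered for Cx3cr1 and Cd33, and the strongest colours are in the border macrophage genes Mrc1, Cd163 and Lyz2 at the bottom.

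In WT replicate 4 the values varied with the length of these genes. All of the 10 tested members with the fewest exon bases (667 to 1931) were above their mean in this library, and 5 of the 10 with the most (4505 to 18313). Across the 29 genes, which share the library, the Spearman correlation of its deviation with exon length was -0.461, against -0.057 to 0.377 in the other 7 libraries. The part of this relation in the values of single genes was not tested.

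The border macrophage genes had few counts, with 102 to 200 counts per library summed over all 4, against 10536 to 14543 counts for the 26 microglial genes. Library totals ran from 23358289 to 30882631 counts. Mrc1, the mannose receptor (chr2:14229392-14332057), had 1.83, 2.46, 2.19 and 2.38 CPM in WT and 3.63, 1.29, 1.26 and 1.65 CPM in T29-1 Cre. Replicate 1 of T29-1 Cre was the highest of all 8 libraries and the other T29-1 Cre libraries were the lowest. The exact 95% Poisson interval of its 96 counts, 2.94 to 4.43 CPM, lay above those of the other T29-1 Cre libraries, which reached 2.21 CPM at most (these intervals cover counting error only). The log2 fold change was -0.17 (SE 0.290, exact permutation p = 0.486), and -0.65 without that library. Without T29-1 Cre replicates 2, 3 and 4 in turn it was -0.03, 0.00 and -0.09.

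Lyz2 (chr10:117277331-117282321) had 3.70, 2.30, 2.87 and 3.18 CPM in WT and 2.91, 2.80, 2.53 and 1.54 CPM in T29-1 Cre. WT replicate 1 was the highest and T29-1 Cre replicate 4 the lowest, with a log2 fold change of -0.31 (SE 0.201, exact permutation p = 0.286), and -0.19 without the first and -0.14 without the second of these libraries. The hemoglobin scavenger receptor Cd163 had 0.150, 0.444, 0.555 and 0.794 CPM in WT and 0.680, 0.473, 0.867 and 0.487 CPM in T29-1 Cre, on 4 to 24 counts. WT replicate 1 was the lowest, and the log2 fold change was 0.39 (SE 0.385, exact permutation p = 0.457), and 0.09 without that library. It was 0.70 without WT replicate 4 and 0.19 without T29-1 Cre replicate 3. Pf4, a chemokine of platelets and of border macrophages, had 2 to 9 counts per library and was removed by the filter. Its libraries held 0.0748, 0.323, 0.228 and 0.293 CPM in WT and 0.340, 0.172, 0.181 and 0.150 CPM in T29-1 Cre, and with no filter its 95% interval ran from 0.446-fold to 1.94-fold.

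**Figure D4:**
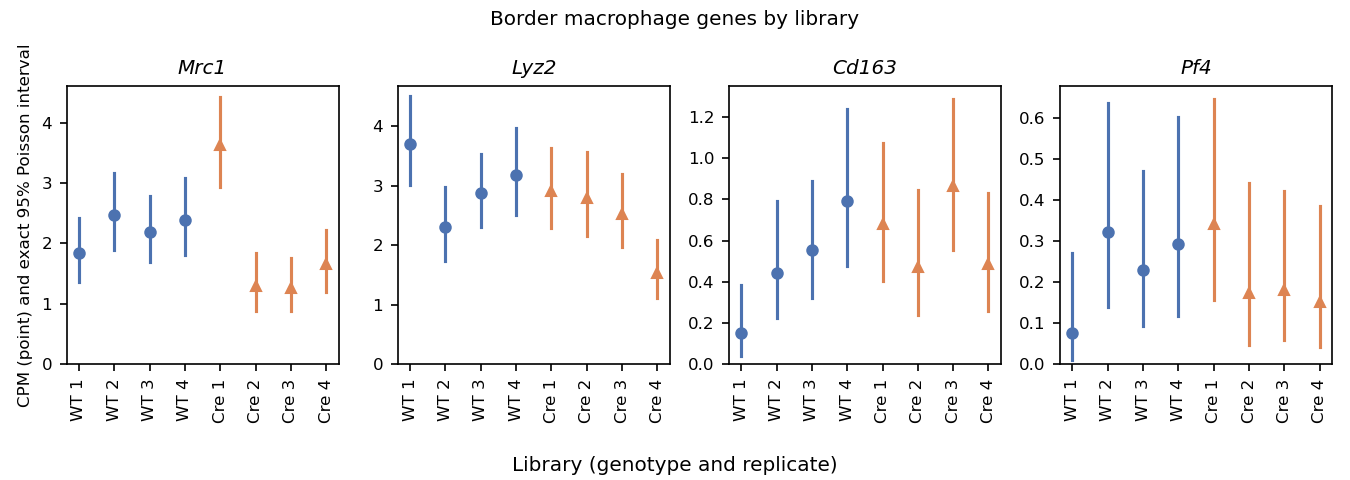
CPM (points) with exact 95% Poisson intervals (lines) for Mrc1, Lyz2, Cd163 and Pf4 in WT replicates 1 to 4 (circles) and T29-1 Cre replicates 1 to 4 (triangles), each panel from 0. Mrc1 stands out in T29-1 Cre replicate 1 at 3.63 CPM, and Lyz2 is lowest in T29-1 Cre replicate 4 at 1.54 CPM.

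The highest library differed between the border macrophage genes. T29-1 Cre replicate 1 was highest for Mrc1 and Pf4, WT replicate 1 for Lyz2 and T29-1 Cre replicate 3 for Cd163. WT replicate 1, the highest for Lyz2, was the lowest for Cd163 and Pf4. Summed over the 4 genes, WT held 5.76, 5.53, 5.84 and 6.64 CPM and T29-1 Cre 7.55, 4.73, 4.84 and 3.82 CPM, so that both extremes were T29-1 Cre and the highest was 1.98 times the lowest. The means were 5.94 ± 0.486 CPM and 5.24 ± 1.61 CPM (SD, n = 4 each). The median log2 fold change of the 3 tested border macrophage genes was -0.17, against -0.06 for the microglial genes, and it was -0.41 without T29-1 Cre replicate 1 and 0.00 without T29-1 Cre replicate 3. The difference between the sets was not tested.

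The biological coefficient of variation that edgeR estimates, the spread beyond counting error, was 0.258 for Mrc1, 0.246 for Cd163 and 0.163 for Lyz2. The 500 tested genes nearest in level had medians of 0.126, 0.169 and 0.116. For the microglial genes the median was 0.0735, beside 0.0683 for tested genes in their range of level, and 13 of the 26 lay above the median of their nearest genes. Singly they exceeded from 0.6% (Irf8) to 91.0% (Ptprc) of their nearest genes, with C1qb at 90.8%. Ptprc and C1qb thus ranked as high as Cd163 and Lyz2 by this measure. Csf1r had the lowest value, 0.0498, and Ptprc the highest of the microglial genes, 0.168.

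**Figure D5:**
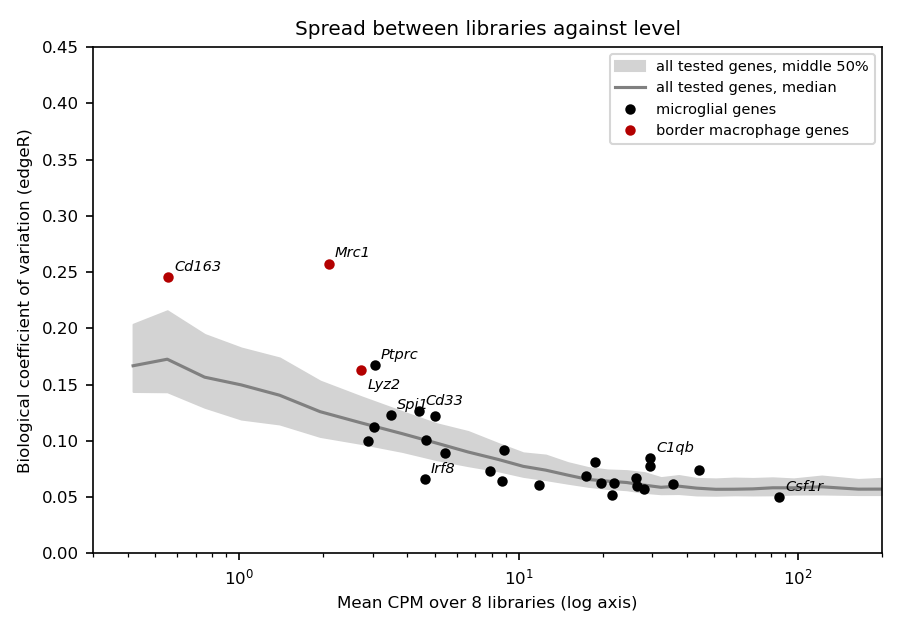
Biological coefficient of variation against mean CPM (log axis) for the 26 microglial genes (black) and the 3 tested border macrophage genes (red), over the median (line) and middle 50% (band) of all tested genes in bins of level. Among the genes above the band are Mrc1 at 0.258, Cd163 at 0.246, Lyz2 at 0.163 and the microglial gene Ptprc at 0.168. Irf8 at 0.0659 lies below it, and Csf1r at 0.0498 lies just below it.

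Markers of meningeal fibroblasts and of vessels were high in the same library as Mrc1. In T29-1 Cre replicate 1 all 8 of 8 meningeal fibroblast markers and 12 of 12 endothelial and mural markers lay above their mean over the libraries. Their median deviations were 0.61 and 0.28 on the log2 scale. In T29-1 Cre replicate 4, where Lyz2 was lowest, the medians were -0.54 and -0.23, and 2 of 8 and 0 of 12 lay above the mean. The fibroblast markers summed to 238 to 383 CPM in WT and 206 to 400 CPM in T29-1 Cre. Ptgds, at a mean of 166 CPM over the 8 libraries, was the largest part of these sums. In WT replicate 4, which held the 383 CPM, the median deviation of the fibroblast markers was 0.09. The collagen genes Col1a1 and Col1a2 of this list, at 19.0 and 20.5 CPM in T29-1 Cre replicate 1, reached at most 10.7 and 12.8 CPM in any other library. Markers of the choroid plexus and ependyma differed from these, with 2 of 6 tested above the mean and a median deviation of -0.14 in T29-1 Cre replicate 1, against 3 of 6 and 0.12 in T29-1 Cre replicate 4. Between the genotypes 3 of the 6 were higher and 3 lower, edgeR called 0, and the 2 at an unadjusted p under 0.05 were the choroid plexus genes Ttr at 2.39 (SE 0.633) and Clic6 at 0.89 (SE 0.394), both log2 fold changes. In WT replicate 1, the highest for Lyz2, 5 of 5 tested red blood cell markers lay above the mean, with a median deviation of 0.70. The part of these markers in the values of Mrc1 and Lyz2 was not tested.

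RNA of other blood leukocytes was near the limit of detection. The 11 markers of T, NK and B cells summed to 9 to 20 counts per library and the 14 markers of neutrophils, monocytes and mast cells to 5 to 10, and 0 of these 25 passed the filter. The T cell gene Cd3g and the neutrophil genes S100a8, Ly6g and Ngp were at 0 in all 8 libraries, which allows up to 0.129 CPM per library. Of 5 platelet markers 2 passed the filter, Gp1bb at a log2 fold change of -0.18 (SE 0.0967) and Itga2b at 0.25 (SE 0.209), and both are also expressed outside platelets.

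A list of 16 ligands and partners of microglial receptors held ligands of neurons and other glia and also genes that microglia express, such as C3ar1, Cd200r1 and Entpd1. Of the 16, 15 were tested, and edgeR called 0, with 7 higher, 8 lower and 0 at an unadjusted p under 0.05. Il34 was at 19.6 ± 1.70 CPM per kb in WT and 20.1 ± 2.75 in T29-1 Cre, and Csf1 at 4.82 ± 0.290 and 4.98 ± 0.0401 (SD, n = 4 each), so that Il34 was 4.07 ± 0.272 times Csf1 in WT and 4.03 ± 0.585 times in T29-1 Cre. Cx3cl1 was at 153 ± 4.43 and 150 ± 3.26 CPM per kb, 15.8 ± 2.34 and 15.1 ± 0.692 times its receptor Cx3cr1. Tgfb1, needed for microglial maturation, was at 1.25 ± 0.159 and 1.23 ± 0.201 CPM per kb. The smallest unadjusted p values were those of the complement gene C4b at -0.20 (SE 0.107) and the hexokinase Hk2 at 0.13 (SE 0.114), both log2 fold changes.

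Of 48 other microglial genes 47 were tested and edgeR called 0, with 15 higher and 32 lower, a median log2 fold change of -0.04 and 2 at an unadjusted p under 0.05. The ribonuclease Rnase4 was among these at -0.26 (SE 0.108, edgeR adjusted p = 0.998), from 8.35 ± 1.04 CPM in WT to 6.99 ± 0.657 CPM in T29-1 Cre (SD, n = 4 each). Among genes of activated microglia 13 of 24 were tested (Lilrb4a had 0 rows in the count table and Clec7a 2, so neither was used), 4 were higher and 9 lower, 0 were called and 0 had an unadjusted p under 0.05. Those with the smallest p were the cathepsin Ctsz at -0.09 (SE 0.0711) and the tetraspanin Cd63 at -0.08 (SE 0.0647). Cst7 and Itgax, at means of 0.0569 and 0.167 CPM, were among those that the filter removed. The tested genes included Ctsb at 431 CPM and Ctsd at 275 CPM, beside 85.7 CPM for Csf1r. From which cells the RNA of the tested genes came was not tested, so these counts do not describe microglia alone. Of 18 other border macrophage genes 8 were tested, 3 higher and 5 lower, with 0 called and 0 at an unadjusted p under 0.05. The tested genes included Maf at 31.7 CPM and Stab1 at 17.6 CPM, beside 2.09 CPM for Mrc1. From which cells their RNA came was not tested, so these counts do not describe border macrophages alone. The log2 fold change was -0.47 (SE 0.284) for F13a1, -0.15 (SE 0.0928) for Cd38, an ectoenzyme of several cell types, and -0.63 (SE 0.402) for Lyve1. In T29-1 Cre replicate 1, F13a1 and Lyve1 lay within the WT range, at 0.642 and 0.567 CPM against 0.555 to 1.17 and 0.228 to 0.794 CPM in WT, and Lyve1 was the highest of the T29-1 Cre libraries.

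In the authors' deposited table of their own comparison the members ran from a log2 fold change of -0.31 for Lyz2 to 0.38 for Cd163, and the smallest unadjusted p was 0.0900 for Cd53. That table also listed Pf4, at -0.10.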

How the data were processed

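The authors deposited whole-number read counts per gene name for 8 libraries, and their own result per gene, a log2 fold change and an unadjusted p-value. The tools were edgeR 3.11, featureCounts and STAR 2.6.1d, on GRCm38, per the submitters' processing notes. Neither the annotation release nor the strand or multi-mapping setting is given in the sources used here. Counts were analysed in R 4.3.3 with edgeR 4.0.16: filterByExpr (minimum count 10, minimum total 15), TMM scaling and the quasi-likelihood F test over all 15996 kept genes with no covariate, at a Benjamini-Hochberg adjusted p under 0.05. DESeq2 1.42.0, limma 3.58.1, other scalings, no filter, a replicate block and leaving out each library were alternatives. CPM uses TMM-scaled totals, and log2 CPM a prior count of 2. Exact permutation tests were two-sided over 70 assignments (smallest p 0.0286). P-values measure the spread between these libraries, which may be technical. Exon lengths (union of all transcripts) and coordinates come from GENCODE M21, and promoters from RefSeq on GRCm38.p6. All 30 members, and all other genes of the lists except Lilrb4a and Clec7a, matched 1 row by name. The rule for named genes took all members, with every library value for the 6 with the smallest p and the border macrophage genes, the ligands Csf1, Il34, Cx3cl1 and Tgfb1, and the 2 genes with the smallest p of each other list, 1 of which is not reported here. Library values of further members, and Lyve1, Cst7, Itgax and the collagen genes, were added after values were seen. The members and lists were chosen with earlier results of these data known. The scripts were tested on simulated data.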

Additional observations from a re-analysis of the deposited data

Results flagged for a closer look

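In 64 groups of 4 libraries (30 genes and 2 sums in each genotype), 4 held a library far from the other 3. Chance alone flags about 1 in 20 groups when the 4 values are independent and normal, and 4 of 64 is near that share. Values on few counts, such as those of Pf4, need not be normal. Mrc1 was at 3.63 CPM in T29-1 Cre replicate 1, with 1.26 to 1.65 CPM in the other T29-1 Cre libraries, and Pf4 was at 0.340 CPM in the same library, with 0.150 to 0.181 CPM in the others. T29-1 Cre replicate 3 held Cd33 at 5.70 CPM (4.17 to 4.42 in the others) and Irf8 at 4.12 CPM (4.57 to 4.64 in the others). The value of Pf4 rests on 9 counts. Irf8 was flagged although its libraries were close together. Its biological coefficient of variation, 0.0659, exceeded that of 0.6% of the 500 tested genes nearest in level.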

How the results depend on the processing

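All 29 tested members stayed uncalled in all 14 alternatives, with a smallest adjusted p of 0.892. Over all genes 2 were called in place of 1 with no filter and with the replicate block, and the cause was not tested. Between the WT and T29-1 Cre libraries of the same replicate number, deviations from the genotype mean had correlations of -0.141 to 0.126. Whether the numbers pair the samples is not given and was not tested. The block changed no call of a member. The median log2 fold change of the microglial genes was -0.0802 to -0.0315 without single libraries and -0.0701 to -0.0623 otherwise. That of the border macrophage genes was -0.405 to -0.00252 without single libraries and -0.300 (limma-voom) to -0.138 (no filter) otherwise. The value with no filter is over 4 genes, as Pf4 was kept, and the others are over 3. 17 of the 29 members kept the sign of their difference throughout. Without single libraries these gave -0.0995 to -0.0171 for P2ry12, -0.108 to -0.0135 for P2ry13, 0.0757 to 0.140 for Gpr34, -0.129 to -0.0409 for Selplg, -0.184 to -0.0771 for Olfml3, -0.325 to -0.147 for Aif1, -0.381 to -0.151 for Spi1, -0.0939 to -0.0373 for Irf8, -0.103 to -0.0158 for C1qc, -0.152 to -0.0413 for Tyrobp, -0.195 to -0.0293 for Fcer1g, 0.0258 to 0.248 for Cd33, -0.272 to -0.0393 for Cd68, -0.303 to -0.125 for Cd53, -0.654 to -0.00252 for Mrc1, 0.0877 to 0.698 for Cd163 and -0.413 to -0.137 for Lyz2. The other 12 changed sign in at least 1 alternative. For these, leaving out single libraries gave -0.137 to 0.00406 for Tmem119, -0.0541 to 0.0617 for Cx3cr1, -0.0544 to 0.0150 for Siglech, -0.00826 to 0.0426 for Fcrls, -0.0220 to 0.0236 for Csf1r, -0.107 to 0.0192 for C1qa, -0.142 to 0.0169 for C1qb, -0.0478 to 0.0410 for Itgam, -0.0771 to 0.0716 for Trem2, -0.0256 to 0.0644 for Ctss, -0.0538 to 0.0183 for Laptm5 and -0.168 to 0.136 for Ptprc. With upper quartile scaling Itgam was at -0.00189. Cd163 and Pf4 had the fewest counts of the members.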
